A study of Homo sapiens with 4 samples.

Results

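Changes in the transcripts of the bone morphogenetic protein (BMP) and transforming growth factor beta (TGF-beta) pathway were followed after knockdown of METTL14 in SK-N-BE(2) cells, with GREM1 as the starting point. The 51 genes comprised secreted antagonists and a receptor-like antagonist, ligands, latency proteins, receptors, SMAD proteins, inhibitors and ID target genes. They were chosen by symbol with earlier results of the same comparison in view, so their fold changes are given as a description and carry no p-values. Each of the 51 symbols matched 1 of the 60671 gene IDs in the count table, and 41 of the 51 genes had enough counts to be fitted.

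SK-N-BE(2) is a human neuroblastoma cell line in which MYCN is amplified. One group of libraries came from cells with a non-targeting hairpin (shNC) and the other from cells with a hairpin that silences METTL14 (shMETTL14), a partner of METTL3 in the enzyme that writes N6-methyladenosine into RNA. According to the methods of the study, hairpins were delivered with the pLKO.1 lentiviral vector and stable lines were selected with puromycin, so both groups had gone through infection and selection. The labels do not say which METTL14 hairpin was used, and each group had 2 libraries. Depth in genes ran from 18925786 to 19886214 counts. Within a group, the mean chi-square per gene was 2.80 (shNC) or 2.30 (shMETTL14), against 34.1 to 35.2 for libraries of different groups. The 10 markers of noradrenergic neuroblastoma were all detected, with MYCN at 49710 to 61727 counts, so the labelled cell type was met.

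In this pathway, dimeric ligands bring type I and type II receptor kinases together, and the type I receptor then phosphorylates SMAD proteins. BMP ligands act mainly through SMAD1, SMAD5 and SMAD9, whereas TGF-beta and activins act mainly through SMAD2 and SMAD3, and SMAD4 is shared. GREM1 encodes gremlin 1, a secreted protein that binds BMP2, BMP4 and BMP7 and keeps them from their receptors. The ID genes, which encode helix-loop-helix proteins that hold back differentiation factors, are direct transcriptional targets of BMP SMADs, and in the embryo BMP signals help to set up the sympathetic lineage from which neuroblastoma arises.

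The upstream sequences of a pair of antagonists and a pair of ID targets are shown because these genes lie at the entry and at the read-out of BMP signalling. They are RefSeq sequences on GRCh38.p14, all on the plus strand and read 5′ to 3′, at chr15:32717754-32717973 for GREM1, chr10:28677271-28677341 for BAMBI, chr20:31605039-31605282 for ID1 and chr6:19837120-19837369 for ID4. Each stretch ends before the first exon of its own gene. Capitals mark GGCGCC, a GC-rich word bound by BMP SMADs, and CAGAC or its complement GTCTG, the core of the general SMAD-binding element.
GREM1: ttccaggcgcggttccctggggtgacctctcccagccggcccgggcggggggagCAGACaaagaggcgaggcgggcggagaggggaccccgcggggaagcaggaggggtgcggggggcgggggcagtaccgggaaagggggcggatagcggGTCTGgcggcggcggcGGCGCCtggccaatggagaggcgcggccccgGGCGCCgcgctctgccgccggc
BAMBI: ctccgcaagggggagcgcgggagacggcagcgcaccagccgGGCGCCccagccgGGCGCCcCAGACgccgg
ID1: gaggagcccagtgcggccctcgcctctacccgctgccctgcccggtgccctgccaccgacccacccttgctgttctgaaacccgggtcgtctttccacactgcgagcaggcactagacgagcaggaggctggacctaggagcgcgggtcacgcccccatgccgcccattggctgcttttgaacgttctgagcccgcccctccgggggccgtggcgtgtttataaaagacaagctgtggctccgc
ID4: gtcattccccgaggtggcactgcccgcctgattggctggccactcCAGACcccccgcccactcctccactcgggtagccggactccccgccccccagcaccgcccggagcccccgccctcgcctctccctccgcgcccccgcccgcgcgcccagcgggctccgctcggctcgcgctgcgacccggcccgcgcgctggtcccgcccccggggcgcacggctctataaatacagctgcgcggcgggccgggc

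The GREM1 stretch held 2 GGCGCC words and 2 CAGAC words, and the shorter BAMBI stretch held 2 and 1. The ID4 stretch had a single CAGAC, and the ID1 stretch had neither word. No base was shared by the 2 kinds of word in these stretches. Their GC content was 79.1% for GREM1, 83.1% for BAMBI, 66.4% for ID1 and 78.8% for ID4. In the full windows of 250 bases before a start, searched on both strands, GGCGCC was found in 16.4% of 35116 windows over all genes and CAGAC in 38.0%. RefSeq windows were matched for 44 of the 51 genes. Among their 75 windows, 17 (22.7%) held GGCGCC and 27 (36.0%) held CAGAC. Some genes, such as TGFBR1, had several windows, a few of them overlapping, so the same word can be counted more than once. FSTL1, an antagonist called lower, also had 2 GGCGCC words in its window, and a second RefSeq window of GREM1 had 0. A match in these letters is a description of sequence and does not show binding. Sequence farther than 250 bases before a start was not searched. A stretch without a word, as for ID1, therefore does not show that the gene lacks such sites.

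METTL14 transcripts (ENSG00000145388, chr4:118685368-118715433 in GENCODE 29 on GRCh38) were counted first as a check of the labels. The shNC libraries had 753 and 754 counts and the shMETTL14 libraries 303 and 321, so METTL14 was lower in both libraries labelled as knockdown. The log2 fold change was -1.26 ± 0.083 (SE, n = 2 libraries per group), with an adjusted p of 3.6e-11 by edgeR's quasi-likelihood test, and METTL14 stood at 41.7% of its control level.

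Of the 41 fitted pathway genes, 31 passed an adjusted p of 0.05, of which 13 were higher and 18 lower in shMETTL14 cells. Over all 16309 genes fitted, 52.5% passed, 27.2% higher and 25.3% lower. A change of at least 2-fold was seen for 6 of the 41, with GREM1, ID4 and LTBP1 higher and INHBA, BMP7 and TGFBR2 lower, against 8.79% of all genes. In 37 of the 41 the libraries of the groups did not overlap, which held for 75.5% of all genes. The median log2 fold change was -0.11 for the 41 genes and -0.00095 for all genes, and the median absolute value was 0.34 against 0.30. With DESeq2, 11 of the genes were lower in place of 18, and the median log2 fold change was -0.18 with upper quartile scaling, under which all genes moved by -0.068. In bulk RNA, fewer cells expressing a gene and less RNA per cell cannot be told apart.

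**Figure D1:**
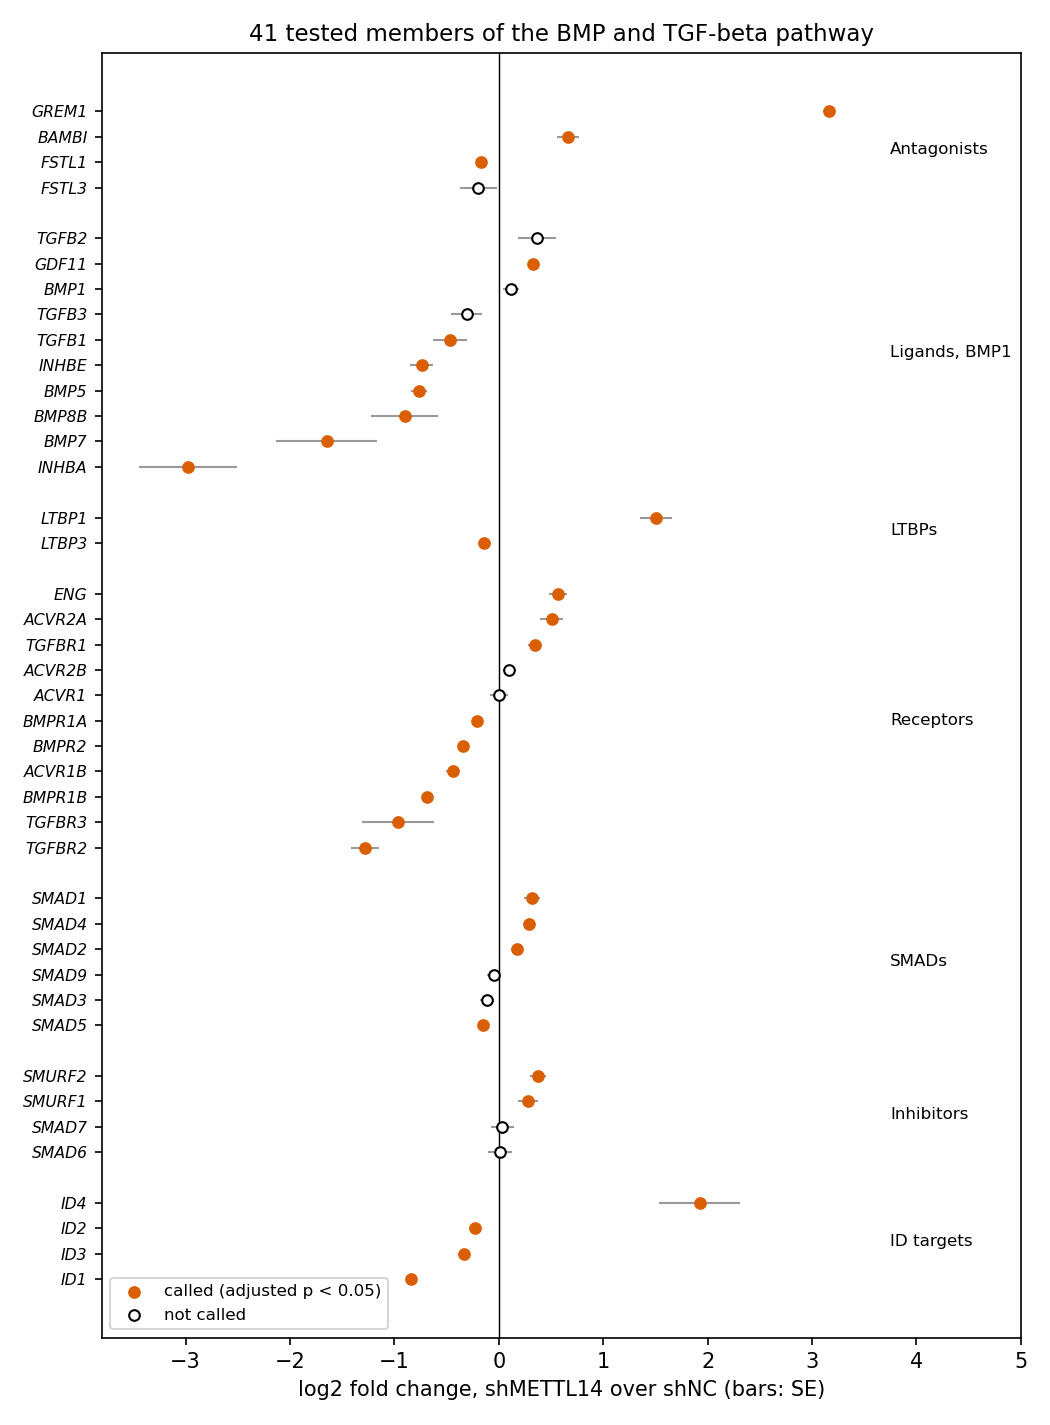
Log2 fold change of shMETTL14 over shNC for the 41 fitted pathway genes, ordered by role, with bars for the standard error; filled points passed an adjusted p of 0.05 and open points did not. GREM1 stands at 3.16, INHBA and TGFBR2 lie at -2.98 and -1.28, and the SMAD genes stay between -0.15 and 0.32.

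GREM1 (ENSG00000166923, chr15:32717974-32745107) was the gene whose fold change led to the choice of this pathway. It had 375 and 387 counts in the shNC libraries and 3337 and 3426 in the shMETTL14 libraries. In CPM, which are counts scaled to library size, that was 19.5 ± 0.987 (SD, n = 2) against 174 ± 5.36, an 8.93-fold difference. Its log2 fold change was 3.16 ± 0.057 (SE), and 21 of the 16309 fitted genes had a higher one. Per length of exon, GREM1 lay above 27.0% of the 16156 fitted genes with a known exon length in the control cells and above 75.9% after knockdown. An antisense transcript, AC090877.2, shares 188 exon bases with GREM1, and how strand was handled in counting is not given in the sources used here.

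Genes beside GREM1 on the chromosome were read for comparison. Within 500 kb, 11 other genes were fitted. Of these, 3 were called lower and none higher, against 25.3% and 27.2% of all genes. SCG5, which encodes the secretory granule chaperone 7B2 and lies directly upstream, had 116 and 95 counts in control and 69 and 59 in knockdown cells (log2 fold change -0.71 ± 0.19, SE, adjusted p = 0.0037 by edgeR). FMN1, an actin nucleator on the other side, went from 1292 and 1186 counts to 1111 and 1091 (log2 fold change -0.16 ± 0.056, adjusted p = 0.019 by edgeR). The noncoding AC123768.3 was the third neighbour called lower, and the other 8 were not called, with log2 fold changes between -0.44 and 0.78. The neighbours were taken by position, whatever their values.

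Because GREM1 is often made by fibroblasts, the markers of such cells were read beside it. Of 8 fibroblast markers, 7 were fitted, and their summed level was 663 and 664 CPM in control cells and 773 and 784 CPM in knockdown cells. Of the 7, 1 was called higher and 3 lower, against 27.2% and 25.3% of all genes. THY1, a surface glycoprotein also made by neurons, was the 1 marker of this list called higher, with 4348 and 4199 counts in shNC and 7112 and 7045 in shMETTL14. In CPM, THY1 alone went from 218 and 219 to 363 and 366, a larger rise than that of the sum. By contrast, PDGFRA, a growth factor receptor of mesenchymal cells, fell from 328 and 316 counts to 61 and 85, and COL3A1, a fibrillar collagen, from 610 and 532 to 330 and 328. PDGFRB was also called lower (log2 fold change -0.19 ± 0.047, SE). The matrix proteoglycan genes DCN and LUM were not called, nor was ACTA2, and FAP had 0 counts in 3 libraries and 1 in the other. Markers of leukocytes, endothelium, epithelium and Schwann cells summed to 10.2 and 10.6 CPM in control cells and 6.64 and 6.86 CPM in knockdown cells, with SOX10 at 0 throughout. Neuroblastoma markers summed to 5559 and 5689 CPM in control and 5542 and 5594 CPM in knockdown cells. Within that sum, MYCN alone rose from a mean of 2616 to 3173 CPM. Of the 10, 8 were called lower, against 25.3% of all genes, and MYCN and ISL1 higher. The part of these marker differences in the level of GREM1 was not tested.

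BAMBI (ENSG00000095739) encodes a receptor-like membrane protein without a kinase domain that inhibits BMP and TGF-beta signalling. It had 253 and 212 counts in the shNC libraries and 351 and 379 in the shMETTL14 libraries, with no overlap. The log2 fold change was 0.66 ± 0.11 (SE). FSTL1, a secreted follistatin-like glycoprotein, was the most abundant antagonist per length, at 20.4 CPM per kilobase of exon in control and 18.1 in knockdown cells, and it fell slightly (log2 fold change -0.17 ± 0.042). FSTL3, which binds activins, had 81 to 101 counts and did not pass the test.

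The classical antagonists other than GREM1 were almost silent. NOG, which encodes noggin, had 0 counts in all 4 libraries, which allows up to 3 counts in each. CHRD, which encodes chordin, had 1 count in a single control library. FST, which encodes follistatin, had 0 counts in both control libraries and 2 in each knockdown library, too few for a fold change. GREM1 was therefore the only BMP-trapping antagonist among NOG, CHRD, FST and GREM1 with more than 2 counts in any library.

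**Figure D2:**
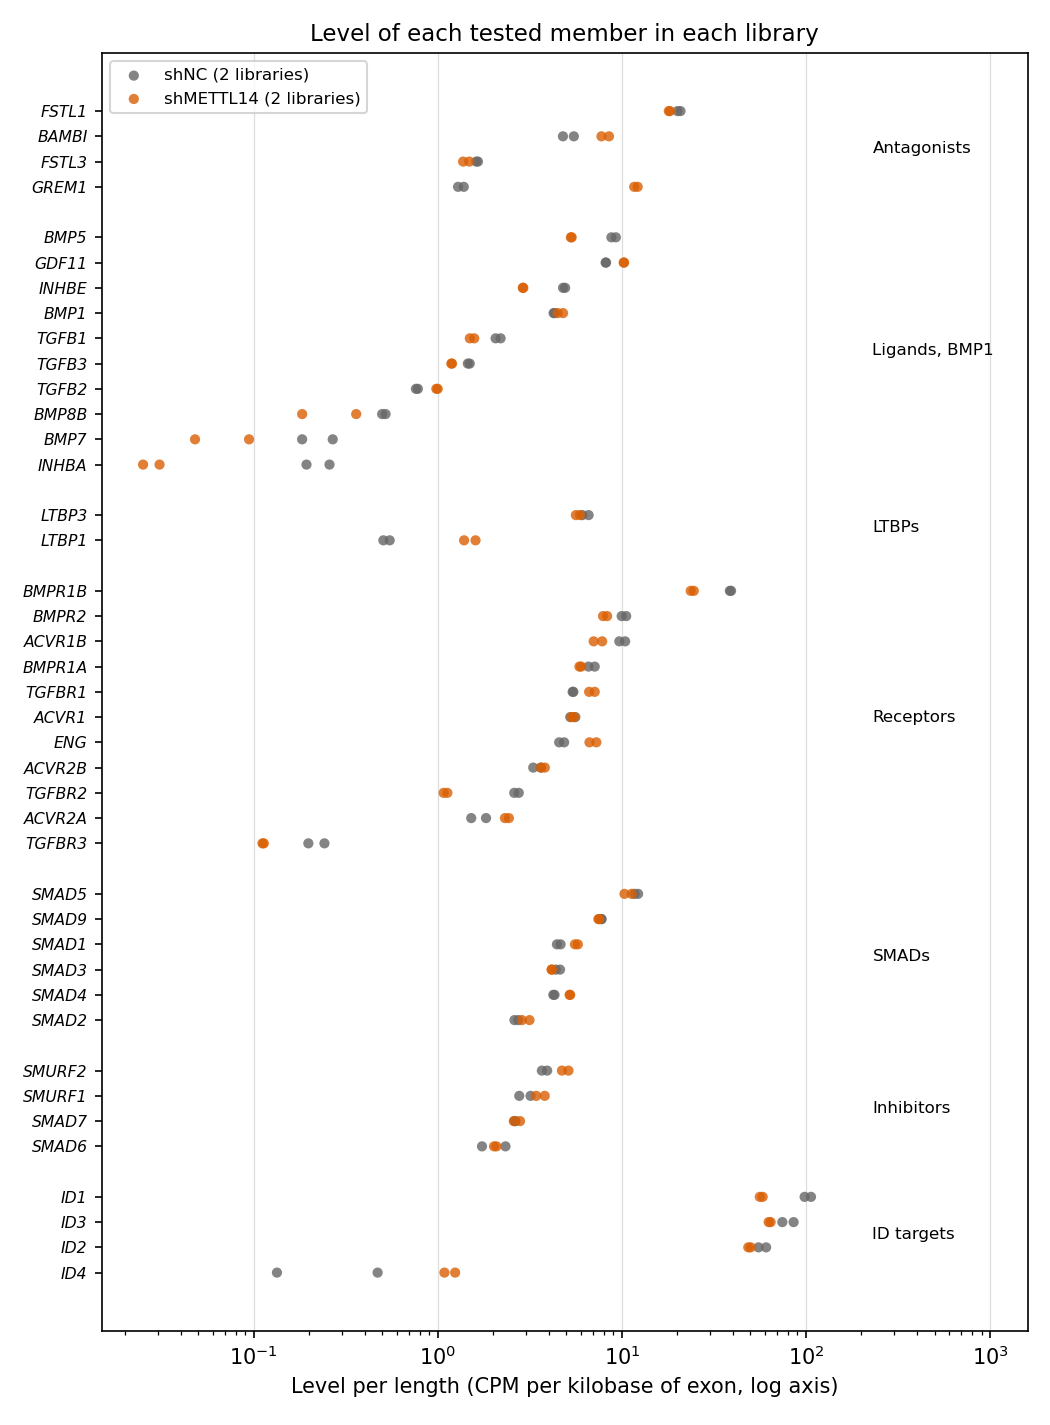
Level of each fitted pathway gene in each of the 4 libraries, in CPM per kilobase of exon on a log axis, with shNC libraries in grey and shMETTL14 libraries in orange. GREM1 moves from 1.34 to 11.9 on average, ID1, ID2 and ID3 stay the most abundant genes, and ID4, INHBA, BMP7 and TGFBR3 are among the lowest.

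Among the ligands, 10 of 17 genes were fitted. Of the 10, 1 rose and 6 fell, against 27.2% and 25.3% of all genes, and 3 did not pass. This group includes BMP1, which despite its name is a metalloprotease that cleaves procollagens and chordin. BMP5 (ENSG00000112175, chr6:55753645-55875564) was the most abundant BMP, at 9.02 CPM per kilobase in control cells. Its counts were 691 and 702 in shNC and 409 and 406 in shMETTL14, so that the knockdown libraries nearly coincided below both controls. BMP5 fell with a log2 fold change of -0.76 ± 0.079 (SE), to 58.9% of the control level.

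BMP7, a ligand bound by gremlin 1, was rare, with 29 and 19 counts in control and 10 and 5 in knockdown cells. Its log2 fold change was -1.65 ± 0.48, which stood at -1.35 without shNC library 1 and -1.25 without shMETTL14 library 2, and in neither of these fits nor with DESeq2 was it called. BMP8B had 50 and 46 counts in control and 34 and 17 in knockdown cells (log2 fold change -0.90 ± 0.32). Its value was -1.47 without shMETTL14 library 1 and -0.50, no longer called, without shMETTL14 library 2, and the call was also lost when either shNC library was left out (-0.87 and -0.93) and with DESeq2. BMP8B may share reads with its near-identical copy BMP8A, and it overlaps PPIE on the opposite strand, so its counts are uncertain.

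The remaining BMP ligands, BMP2 and BMP4 among them, were at the limit of detection. BMP2 had 0 counts in control and 1 in each knockdown library, BMP4 had 15 and 6 counts in control and 7 and 8 in knockdown cells, and BMP3 had none. BMP6 ranged from 8 to 11 counts, BMP8A from 4 to 13 and GDF6 from 1 to 9, and none of these was fitted. At this depth a difference in these genes was not detectable. GDF11, which signals through activin receptors, was abundant and rose from 1416 and 1353 counts to 1743 and 1705 (log2 fold change 0.33 ± 0.049). GDF11 overlaps SARNP on the opposite strand.

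The activin subunit genes INHBA and INHBE both fell. INHBA (ENSG00000122641, chr7:41667168-41705834), which encodes the beta A subunit of activin A, had 32 and 41 counts in the shNC libraries and 5 and 4 in the shMETTL14 libraries. These few reads left 12.4% of the control level, with a log2 fold change of -2.98 ± 0.47 (SE). INHBE, the beta E subunit, had 288 and 284 counts in control and 172 and 168 in knockdown cells, and its log2 fold change was -0.74 ± 0.11. INHBB had no counts in any library.

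The TGF-beta ligands changed less. TGFB1 fell from 133 and 136 counts to 100 and 93 (log2 fold change -0.47 ± 0.16), a call that was lost without shNC library 2 (-0.42), without shMETTL14 library 2 (-0.43) and with DESeq2, and TGFB1 overlaps HNRNPUL1 on the opposite strand. TGFB2 (0.36 ± 0.18) and TGFB3 (-0.31 ± 0.15) did not pass, nor did BMP1 (0.11 ± 0.075). Of the latent TGF-beta binding proteins, which store the ligand in the matrix, LTBP1 (ENSG00000049323, chr2:32946972-33399509) had 80 and 71 counts in control and 230 and 196 in knockdown cells. LTBP1 was thus 2.84-fold higher, with a log2 fold change of 1.504 ± 0.15. LTBP3 was more abundant and differed by -0.14 ± 0.058, a call that was lost without shNC library 1 (-0.085), without shMETTL14 library 1 (-0.10) or 2 (-0.18), with no filter on low counts (-0.13) and with DESeq2.

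All 11 receptor genes were fitted. Against 27.2% of all genes higher and 25.3% lower, 3 receptors rose, 6 fell and 2 did not pass. BMPR1B (ENSG00000138696, chr4:94757968-95158448), a type I BMP receptor, was the most abundant of them per length, at 38.9 CPM per kilobase in control and 24.1 in knockdown cells. It had 4857 and 4739 counts in shNC and 3040 and 2875 in shMETTL14, and the log2 fold change was -0.69 ± 0.041 (SE). BMPR1A, the second type I BMP receptor, fell less (-0.21 ± 0.053), a call lost with DESeq2, and ACVR1, the third, was at 0.00036 ± 0.087. The ratio of BMPR1B to BMPR1A per length went from 5.86 and 5.51 in control to 4.18 and 3.94 in knockdown cells. The type II receptor BMPR2 fell (-0.34 ± 0.048), whereas ACVR2A rose (0.51 ± 0.11) and ACVR2B did not pass (0.10 ± 0.061). ACVR2A shares exon bases with ORC4 on the opposite strand.

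For the TGF-beta and activin receptors, both directions were seen. TGFBR2 (ENSG00000163513, chr3:30606502-30694142), the type II receptor that binds TGF-beta, had 244 and 248 counts in control and 99 and 102 in knockdown cells. It fell with a log2 fold change of -1.28 ± 0.13, to 41.1% of the control level. Its partner TGFBR1 rose (0.34 ± 0.067), so the ratio of TGFBR1 to TGFBR2 per length moved from 2.096 and 1.962 to 6.18 and 6.32, without overlap. ACVR1B, a type I activin receptor, fell (-0.44 ± 0.066).

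The co-receptors also diverged. TGFBR3, which encodes betaglycan, had 42 and 33 counts in control and 19 in each knockdown library (log2 fold change -0.97 ± 0.34). That call was lost without shNC library 1 (-0.82), without shMETTL14 library 1 (-0.95) or 2 (-0.98) and with DESeq2. ENG, which encodes endoglin, rose from 358 and 366 counts to 560 and 505 (log2 fold change 0.57 ± 0.088).

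The SMAD genes moved little. Of the 6 signalling SMADs, SMAD1 (0.32 ± 0.076), SMAD4 (0.29 ± 0.054) and SMAD2 (0.17 ± 0.051) rose, SMAD5 fell (-0.15 ± 0.050), and SMAD3 (-0.11 ± 0.069) and SMAD9 (-0.049 ± 0.064) did not pass. SMAD4 overlaps the coding gene AC091551.1 on the same strand. The calls of SMAD2 and SMAD5 were lost with DESeq2 and without single libraries, which were shNC library 2 (0.14 and -0.11) for both, shMETTL14 library 2 for SMAD2 (0.099) and shMETTL14 library 1 for SMAD5 (-0.084). SMAD2 also lost its call with upper quartile scaling (0.10), and SMAD5 with no filter on low counts (-0.14). Summed per length, the BMP-branch SMADs stood at 98.7% of control and the TGF-beta-branch SMADs at 99.98%.

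Inhibitory SMADs, which are themselves induced by the pathway, did not pass the test. SMAD6 was at 0.0090 ± 0.11 and SMAD7 at 0.035 ± 0.11 on the log2 scale, and their libraries overlapped between groups. The ubiquitin ligases that target SMADs and receptors were higher, SMURF2 by 0.37 ± 0.079 and SMURF1 by 0.28 ± 0.095. SMURF1 was not called without shNC library 2 (0.18), without shMETTL14 library 2 (0.20), with upper quartile scaling (0.21) or with DESeq2. Both genes overlap a coding gene on the opposite strand, CEP95 for SMURF2 and TRRAP for SMURF1.

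All 4 ID genes passed, 3 lower and 1 higher, where 52.5% of all genes passed. ID1 (ENSG00000125968, chr20:31605283-31606515) was the most abundant of the 41 genes per length in control cells, at 103 CPM per kilobase, and at 57.2 after knockdown. Its counts were 2419 and 2517 in shNC and 1356 and 1382 in shMETTL14, both well below the controls. The log2 fold change was -0.84 ± 0.050 (SE). ID3 (-0.33 ± 0.054) and ID2 (-0.23 ± 0.049) fell less, and ID1 was above ID3 per length in both control libraries (ratios 1.32 and 1.24) but below it in both knockdown libraries (0.873 and 0.928).

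ID4 (ENSG00000172201, chr6:19837386-19840684) went the other way from a very low level, with 22 and 6 counts in control and 57 and 49 in knockdown cells. The control libraries themselves lay far apart, at 1.10 and 0.313 CPM, and both were below the knockdown libraries. The log2 fold change was 1.92 ± 0.39, but 3.09 without shNC library 1 and 1.3025 without shNC library 2. ID4 made up 0.631% to 0.729% of the summed ID level in the knockdown libraries.

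Sums per length were taken to compare the pools on each side of the pathway, as values with no test. The secreted antagonists in this sum were GREM1, FSTL1, FSTL3, NOG, CHRD and FST. They summed to 23.0 and 23.8 CPM per kilobase in control and 31.4 and 31.6 in knockdown cells. The share of GREM1 in the sum was 5.60% and 5.81% in control and 37.1% and 38.6% in knockdown cells. Within the sum, FSTL1 kept the largest share per length. The other antagonists described below are left out, so these shares hold only for the genes named. The most abundant of those left out, TWSG1, stood at 4.73 and 5.26 in control and 8.03 and 7.51 in knockdown cells. NBL1 went from 2.37 and 2.77 to 5.04 and 4.25, and DAND5 from 2.14 and 2.28 to 0.384 and 0.65. In CPM, not divided by exon length, GREM1 stood above FSTL1 in knockdown cells, at means of 174 and 158. The BMP and GDF ligands, counted without GDF11 and the protease BMP1, went from 10.2 and 10.5 to 6.54 and 6.17, with BMP5 making up 80.8% to 88.3% of them. GREM1 thus went from 0.127 and 0.132 of the ligand sum to 1.78 and 1.97 of it. These are ratios of RNA levels. The fold change of GREM1 led to the choice of this pathway, so its share and this ratio largely restate that fold change. The ligand sum is mostly BMP5, whereas the ligands named above as bound by the GREM1 product are BMP2, BMP4 and BMP7. The ratio therefore does not set GREM1 against those ligands.

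The type I BMP receptors summed to 50.4 and 51.9 CPM per kilobase in control and 36.0 and 35.0 in knockdown cells, and the ID genes to 229 and 253 against 170 and 172. The pools of BMP ligands, type I BMP receptors and ID genes stood at 61.6%, 69.3% and 71.1% of control. By contrast, the type II receptors (92.2%), TGF-beta ligands (85.0%) and TGF-beta receptors (97.2%) were closer to control. The TGF-beta receptor sum joins genes of opposite direction, with TGFBR1 at 127% of control, TGFBR2 at 41.1% and TGFBR3 at 51.1%. Each of these sums is carried by 1 or a few abundant genes.

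**Figure D3:**
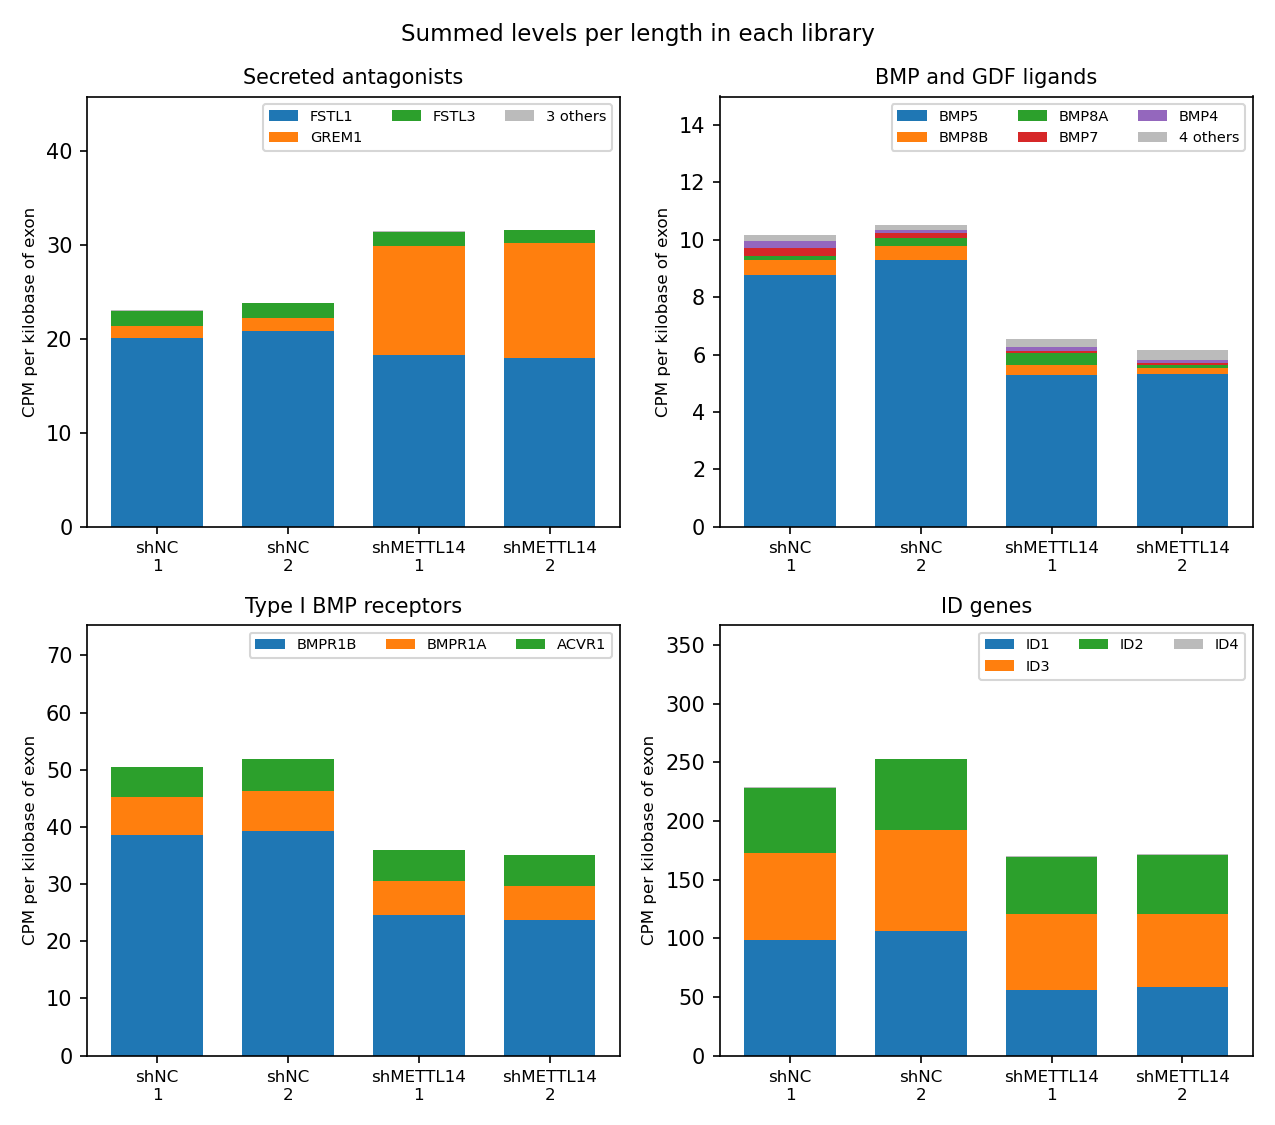
Summed CPM per kilobase of exon in each library for secreted antagonists, BMP and GDF ligands, type I BMP receptors and ID genes, with stacked bars for single genes. The antagonist sum covers GREM1, FSTL1, FSTL3, NOG, CHRD and FST only. Among these genes it grows from 23.0 and 23.8 to 31.4 and 31.6 through GREM1. The sums of the ligands, receptors and ID genes are lower in both shMETTL14 libraries.

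A further 97 genes of the pathway, listed from general knowledge but with earlier results of these data known, were read from the same fit, and their p-values describe that fit. Of these, 63 were fitted and 44 were called by edgeR at an adjusted p of 0.05, 23 higher and 21 lower, against 27.2% higher and 25.3% lower of all genes (52.5% called). The median log2 fold change was 0.068. At least 2-fold changes were called for 15 of them, 7 higher and 8 lower, against 8.79% of all genes, and these are the genes described by the naming rule.

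**Figure D4:**
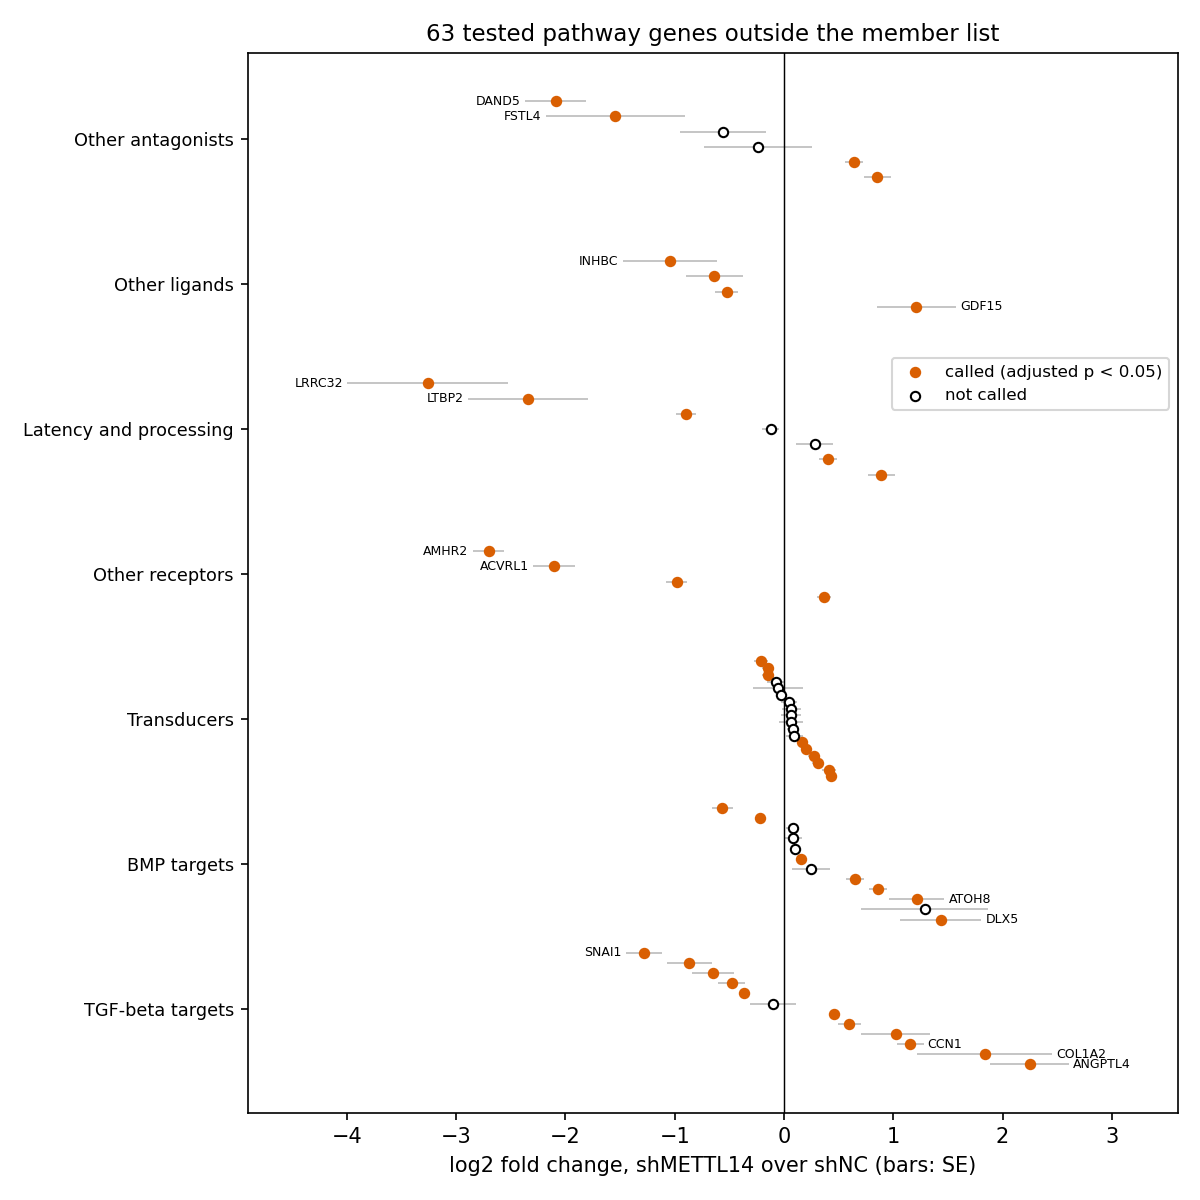
Log2 fold change of shMETTL14 over shNC for 63 fitted pathway genes outside the 51, by list, with bars for the standard error and names for those genes called with at least a 2-fold change that the text describes. The 18 intracellular transducers lie between -0.21 and 0.43, and the receptors AMHR2 and ACVRL1 lie at -2.70 and -2.103.

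In the list of 8 other receptors, 4 genes were fitted, of which 3 fell and 1 rose, against 25.3% and 27.2% of all genes. AMHR2, the type II receptor for anti-Müllerian hormone, had 345 and 338 counts in control and 59 and 45 in knockdown cells (log2 fold change -2.70 ± 0.15, adjusted p = 1.4e-12, edgeR). ACVRL1, the type I receptor ALK1 that signals through BMP SMADs, went from 161 and 164 counts to 40 and 35 (-2.103 ± 0.19, adjusted p = 5.2e-09, edgeR).

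Among 14 other antagonists, 6 were fitted, 2 higher and 2 lower, against 27.2% and 25.3% of all genes. DAND5, a secreted antagonist of the same DAN family as GREM1, fell from 85 and 87 counts to 15 and 25 (-2.09 ± 0.28, adjusted p = 1.8e-06, edgeR). NBL1, of the DAN family too, rose from 170 and 191 counts to 355 and 294 (0.85 ± 0.12), and TWSG1, which binds BMPs and chordin, from 418 and 447 to 697 and 641 (0.64 ± 0.083). NBL1 and TWSG1 were named after their values were seen, and NBL1 overlaps MINOS1 and a readthrough gene on the same strand. FSTL4, with 11 and 10 counts in control and 4 and 3 in knockdown cells, had an adjusted p of 0.048 by edgeR that rose to between 0.11 and 0.19 when any library was left out. Only 4 of 17 other ligands were fitted, 3 of them lower and 1 higher. GDF15, a stress-induced cytokine, rose from 14 and 18 counts to 33 and 41 (1.21 ± 0.36). INHBC, the beta C subunit, had 23 counts in each control library and 9 and 13 in knockdown cells (-1.05 ± 0.43). Their adjusted p of 0.0078 and 0.045 by edgeR rose to 0.094 and 0.28 with DESeq2. GDF15 was also not called without shNC library 1 (1.01) or shMETTL14 library 2 (1.03), and INHBC was not called without any 1 of the 4 libraries (-1.34 to -0.80).

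Of 12 genes for ligand latency and processing, 7 were fitted, 2 higher and 3 lower. LTBP2, a matrix protein of the LTBP family that does not bind latent TGF-beta, had 20 and 27 counts in control and 2 and 7 in knockdown cells (-2.34 ± 0.55, adjusted p = 0.0011, edgeR), opposite in sign to LTBP1. Its value was -1.71 without shMETTL14 library 1 and -3.48 without shMETTL14 library 2. LRRC32, which tethers latent TGF-beta to the cell surface, had 11 and 20 counts in control and 1 and 2 in knockdown cells. Both knockdown libraries were below the limit of 3 counts. Set against 3 counts in each knockdown library, the control mean was 5.16-fold higher. Of 18 intracellular transducers, all fitted, 6 rose and 3 fell, against 27.2% and 25.3% of all genes. None changed by 2-fold.

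Of 14 BMP targets other than the ID genes, 12 were fitted, with a median log2 fold change of 0.20. Of the 12, 5 were higher and 2 lower, against 27.2% and 25.3% of all genes, and 5 were not called. ATOH8, a helix-loop-helix factor, rose from 32 and 33 counts to 67 and 83 (1.21 ± 0.25, adjusted p = 0.00036, edgeR), and DLX5, a homeobox gene, from 22 and 10 to 39 and 47 (1.43 ± 0.37, adjusted p = 0.0026, edgeR). Without shNC library 1 the value of DLX5 was 2.07.

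TGF-beta targets were split as well. Of 14 listed, 12 were fitted, with a median of 0.18. Against 27.2% of all genes higher and 25.3% lower, 6 were higher, 5 lower and 1 not called. ANGPTL4, which encodes a secreted lipase inhibitor, rose from 10 and 11 counts to 54 and 46 (2.25 ± 0.36, adjusted p = 2e-05, edgeR), and CCN1, a matricellular protein, from 170 and 138 to 323 and 359 (1.16 ± 0.12, adjusted p = 4.5e-08, edgeR). SNAI1, a repressor of epithelial genes, fell from 224 and 200 counts to 70 and 103 (-1.28 ± 0.16, adjusted p = 8.7e-07, edgeR). COL1A2, a collagen gene, had 2 and 6 counts in control and 11 and 18 in knockdown cells (1.83 ± 0.62). Its adjusted p was 0.017 by edgeR and 0.16 with DESeq2, and it was not called without shNC library 1 (1.23) or shMETTL14 library 2 (1.43), while its value without shNC library 2 was 2.82.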

How the data were processed

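RNA of SK-N-BE(2) cells was sequenced as 150-bp paired ends, with 2 shNC and 2 shMETTL14 libraries. The authors deposited raw read counts per Ensembl gene, with no normalization. Per the submitters' processing notes, HISAT2 2.1.0, StringTie 1.3.6, HTSeq 0.13.5 and edgeR were used with GRCh38/hg38. The annotation release and strand setting are not given in the sources used here. Lines naming no gene (19.1% to 19.9% of counts) were left out, and 0 other sample columns were present.

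Group effects were fitted to the counts in edgeR 4.0.16 (R 4.3.3; TMM scaling, quasi-likelihood F-test, group as the only term) after the filterByExpr defaults (count 10, total 15). Benjamini-Hochberg adjustment covered all 16309 genes fitted, and genes were called at 0.05. The methods of the study name no test for these libraries. Standard errors were derived from the F statistic. CPM are counts scaled to the library size after TMM. Levels between genes are CPM per kilobase of exon, from the union of exons in GENCODE 29, with which 51 of 51 symbols matched. No fold change is given for genes with at most 3 counts per library in both groups. The biological coefficient of variation was 3.45%. Since 2 libraries were compared with 2, every call rests on a variance model shared across genes, and because nothing states that the libraries came from separate cultures, p-values measure only the spread between them. Of the 51 genes, 20 share exon bases with another annotated gene and 8 with a coding one.

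The 51 genes and the lists were chosen with earlier results of these data known. METTL14, all 51 genes, markers and, of the 97 further pathway genes, those called with at least a 2-fold change were named (1 of them is not reported here), as were genes within 500 kb of GREM1, which were added later. Alternatives were other scalings, other filters, DESeq2 1.42.0, a replicate block and leaving out each library.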

Additional observations from a re-analysis of the deposited data

How the results depend on the processing

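GREM1 kept its call in all 11 alternatives, with a log2 fold change of 3.09 to 3.21, as did METTL14, at -1.33 to -1.21. The 41 fitted pathway genes gave 448 single-gene comparisons with alternatives. In 399 of them the direction and the call did not change, in 32 the call was lost, in 3 it was gained (ACVR2B without shNC library 1, TGFB3 and SMAD3 with upper quartile scaling) and in 14 the sign turned. Of the 31 called genes, 20 were fitted and called in every setting.

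DESeq2 called 11 of the 51 genes and 13 of the 97 further genes lower, against 18 and 21 in edgeR, while calling 5546 genes in all against 8561. With at least 10 counts in every library, 3 genes had a 2-fold change, since INHBA, BMP7 and ID4 were not fitted. Upper quartile scaling took the median log2 fold change to -0.18 and scaling by library size alone took it to -0.16, as these moved all genes by -0.068 and -0.045. Leaving out libraries gave -0.15 to -0.078, the last without shNC library 1.

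Genes near 0, none of them called, changed sign. ACVR1 was at -0.0039 with RLE, -0.067 with upper quartile, -0.045 with library size and -0.018 with the stricter filter, and at -0.051 to 0.048 with a library left out. SMAD6 was at -0.059 with upper quartile, -0.036 with library size and -0.0089 with the stricter filter, and at -0.18 to 0.23 with a library left out. SMAD7 was at -0.033 with upper quartile and -0.011 with library size, and at -0.023 to 0.090 with a library left out.

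The deviations of same-numbered libraries were nearly uncorrelated (Pearson 0.072, Spearman 0.042, across 11625 genes, which are not independent replicates). With 2 libraries per group, these values cannot exclude that same-numbered libraries shared a culture or batch. A replicate block called 31 of the 51 genes and 44 of the 97, and 8926 of all genes. FSTL4 was the gene named in the text that lost its call under the block (adjusted p = 0.053 by edgeR, 0.048 without the block).

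Genes with few counts (INHBA, BMP7, BMP8B, TGFBR3, ID4) are limited by depth.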
